A study of Mus musculus with 24 samples.

Results

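The genes described here are 9 that encode proteins of the brain's hyaluronan matrix, the perineuronal net and the related loose matrix around cells: the lecticans Acan, Bcan, Ncan and Vcan, the link proteins Hapln1, Hapln2 and Hapln4, the glycoprotein Tnr and the receptor phosphatase Ptprz1. They were taken by symbol, and all 9 symbols were found once each among the 54235 features of the count tables. No expression value was used to choose them by the stated rule.

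The study profiled single cells from mice that learned a forelimb reaching task, in primary motor cortex of Fos-CreER::Ai9 mice and in dorsal striatum of Arc-CreER::Ai9 mice. Both lines carry a tamoxifen-dependent Cre recombinase driven by an activity-dependent gene, and a red fluorescent reporter that the recombinase turns on. In each region the groups were control mice, which received 4-hydroxytamoxifen without training, an early stage after 2 days of training and a late stage after 8 days. All mice received 4-hydroxytamoxifen, tissue was taken 3 days after labelling, and the labels used here give no age and no sort on the reporter. Each of the 12 pools held 2 mice, with 2 pools per region and stage, and each pool gave 2 libraries, 1 per hemisphere. Because the driver line changes with the region, a regional difference below cannot be told apart from a difference between the lines.

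Perineuronal nets are lattices of matrix that enclose the cell body and proximal dendrites of certain neurons, above all fast-spiking parvalbumin interneurons. Lecticans are chondroitin sulfate proteoglycans that bind hyaluronan at one end, link proteins hold that bond in place, and tenascin-R, the product of Tnr, joins lecticans at the other end. The nets form late in development, limit plasticity of the circuits they enclose, and draw their parts from both the enclosed neuron and glia around it.

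Of 127901 cell barcodes in 23 libraries, 98612 cells were analysed after filters and removal of 5103 presumed doublets. Libraries held 5260446 to 30470621 unique molecular identifiers (UMIs, each standing for 1 captured transcript), and the median per analysed cell was 1967 to 5520. The right hemisphere of the first dorsal striatum control pool was not used here, so that pool rests on its left hemisphere. Shared barcodes split the libraries into 2 kit classes: 7 libraries of 4 pools (the first control and the first late pool of each region, kit class A) and 16 of the other 8 pools (class B). On different flow cells, 2 libraries of class A had 5 to 113 cell barcodes in common, 2 of class B 1 to 15, and 1 of each class 0 to 4. These classes are an inference from the barcodes: the labels name kit versions without tying them to libraries, and the last 2 ranges overlap. Cells were clustered without the 9 genes, and each class name below stands for an X-like class named from markers. The class called neuroblasts also holds progenitors, dividing cells among them. Motor cortex gave 15455 glutamatergic neurons and no spiny projection neuron class, and dorsal striatum gave 21266 spiny projection neurons and 221 glutamatergic neurons. Cells of the kit classes largely formed separate clusters of the same name. In motor cortex, class A made up 98.7% of one precursor cluster of 1753 cells and 1.66% of another of 3679 cells, so kit class was a term in every stage and region test.

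Acan, Vcan, Tnr and Ptprz1 had oligodendrocyte precursors as their largest single source of transcripts in both regions, and the 250 bases before their RefSeq start sites are printed here because the results turn on this shared source. The build is GRCm38.p6, sequence runs 5′ to 3′ on the gene's own strand, and capitals mark matches to 3 motifs searched on both strands: CAGCTG, an E-box, and ACAAAG and ACAATG, cores bound by SOX factors.
Acan, chr7:79052976-79053225, plus strand: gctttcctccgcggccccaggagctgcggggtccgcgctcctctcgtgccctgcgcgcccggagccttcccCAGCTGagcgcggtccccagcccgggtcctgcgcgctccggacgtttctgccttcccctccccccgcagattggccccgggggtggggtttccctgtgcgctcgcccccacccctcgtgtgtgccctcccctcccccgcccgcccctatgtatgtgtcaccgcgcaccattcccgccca
Vcan, chr13:89742513-89742762, minus strand: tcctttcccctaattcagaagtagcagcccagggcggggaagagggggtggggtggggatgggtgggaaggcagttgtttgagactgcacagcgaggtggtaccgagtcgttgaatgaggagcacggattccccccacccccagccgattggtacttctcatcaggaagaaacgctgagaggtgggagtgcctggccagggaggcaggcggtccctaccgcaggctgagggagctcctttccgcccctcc
Tnr, chr1:159523519-159523768, plus strand: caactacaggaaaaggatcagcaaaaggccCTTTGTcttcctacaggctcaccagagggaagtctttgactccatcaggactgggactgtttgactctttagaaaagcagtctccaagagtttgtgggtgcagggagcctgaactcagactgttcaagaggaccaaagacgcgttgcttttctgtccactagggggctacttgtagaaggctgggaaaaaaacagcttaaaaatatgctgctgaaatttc
Ptprz1, chr6:22875252-22875501, plus strand: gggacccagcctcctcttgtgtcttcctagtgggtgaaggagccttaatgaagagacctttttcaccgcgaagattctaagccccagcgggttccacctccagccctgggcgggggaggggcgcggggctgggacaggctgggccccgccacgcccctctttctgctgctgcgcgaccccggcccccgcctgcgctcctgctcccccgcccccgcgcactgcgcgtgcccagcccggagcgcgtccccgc
The Acan window held a CAGCTG at position -179 from the start site, and the Tnr window held ACAAAG on the opposite strand, read as CTTTGT, at -220. The Vcan and Ptprz1 windows held none of the 3. Among 32851 RefSeq windows of the same length, 13% held CAGCTG, 16.5% ACAAAG and 10.7% ACAATG, and a match here is a description only. GC content was 74.4% for Acan, 71.6% for Ptprz1, 62.4% for Vcan and 46.8% for Tnr. RefSeq windows were matched for 8 of the 9 genes. Of the matched windows not printed, that of Ncan held CAGCTG and that of Hapln2 held CAGCTG and ACAATG. Those of Bcan and Hapln1 held none of the motifs.

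Several of the 9 genes lie side by side in the GENCODE M21 annotation of GRCm38. On chromosome 13, Hapln1 (89539796 to 89611652, plus strand) and Vcan (89655312 to 89742509, minus strand) are neighbours 43659 bases apart. On chromosome 3, Bcan (87987531 to 88000230, minus strand) and Hapln2 (88021750 to 88027583, minus strand) are 21519 bases apart. On chromosome 8, Hapln4 (70083457 to 70090862, plus strand) and Ncan (70093085 to 70120873, minus strand) are 2222 bases apart. Acan lies on chromosome 7 (79053483 to 79115099, plus strand) beside Hapln3, a further link protein gene whose annotated end is 2 bases away. Tnr lies on chromosome 1 (159523769 to 159931729) and Ptprz1 on chromosome 6 (22875502 to 23052916), both on the plus strand.

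Levels are UMIs of a gene per 1000000 UMIs of the same class in the same pool (CPM), with hemispheres summed. The assay reads the 3′ end of transcripts and the values are not scaled to length, so levels were compared between cell classes for 1 gene and never between genes. Over all analysed cells, UMIs in motor cortex and dorsal striatum numbered 1157 and 740 for Acan, 31048 and 24242 for Bcan, 23863 and 15544 for Ncan, and 16519 and 15695 for Vcan. They numbered 5331 and 3173 for Hapln1, 376 and 351 for Hapln2, 8684 and 666 for Hapln4, 34489 and 18310 for Tnr, and 64232 and 50176 for Ptprz1. Hapln4 was thus the gene whose total differed most between the regions as a ratio, while Acan and Hapln2 were counted from few molecules in both.

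In motor cortex, precursors held a median over pools of 83.8% of all Vcan UMIs, 80.2% of Ptprz1, 79.7% of Acan, 53.1% of Bcan and 52.4% of Tnr. Interneurons held 72.1% of Hapln1, and glutamatergic neurons held 82.9% of Hapln4 and 62% of Ncan. In dorsal striatum, precursors held 58.9% of Acan, 50.6% of Ptprz1, 48% of Vcan and 44.3% of Tnr. Astrocytes held 47.2% of striatal Bcan, spiny projection neurons 50.2% of Ncan, interneurons 79.3% of Hapln4 and 58.1% of Hapln1, and mature oligodendrocytes 80.9% of Hapln2. These shares follow the numbers of cells of each class in the libraries, so they describe the libraries and not the tissue.

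**Figure D1:**
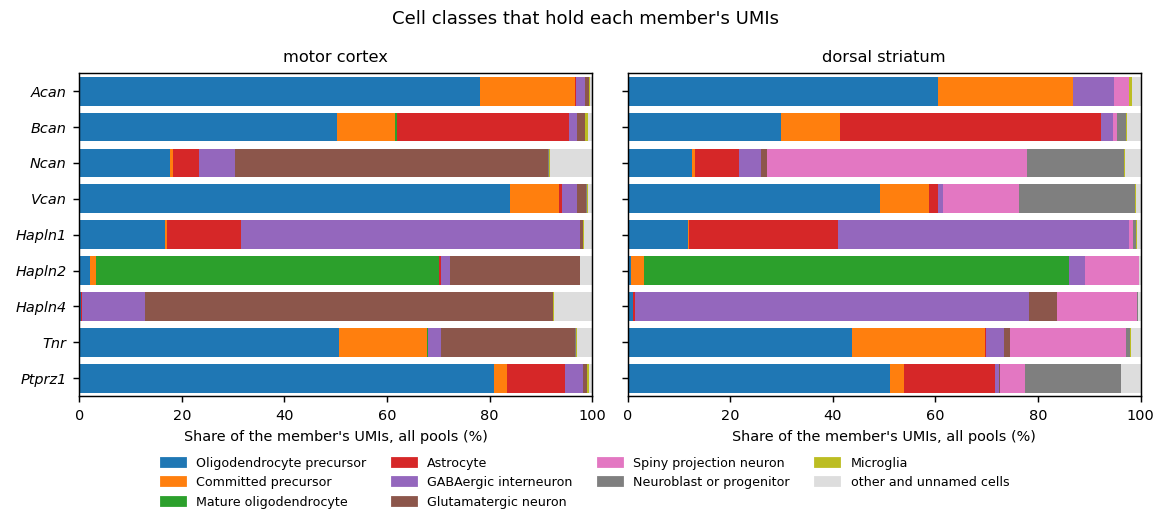
Stacked bars give, for each gene and region, the percentage of its UMIs pooled over all analysed cells that came from each cell class. Oligodendrocyte precursors hold the largest block for Acan, Vcan, Tnr and Ptprz1 in both regions, and the Hapln4 bar is mostly glutamatergic neurons in motor cortex and mostly interneurons in dorsal striatum.

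Acan encodes aggrecan, the lectican most closely tied to the dense nets of parvalbumin cells. In these data it was high in oligodendrocyte precursors and committed precursors. Precursors had 39.3 to 97.3 CPM across the 6 motor cortex pools and 32.5 to 88.5 across the 6 dorsal striatum pools. Their medians were 76.8 and 72.3, and those of committed precursors, the next step of the lineage, were 70.8 and 72.6. The share of precursors with an Acan UMI was 12.9% in motor cortex and 16.3% in dorsal striatum, and 7.21% and 6.6% after each cell was thinned to 1000 UMIs. Microglia, which should lack the gene, had a median share of 0% in motor cortex and 0.0645% in dorsal striatum, with 2 UMIs in 10167 cells and 4 UMIs in 5001 cells at median depths of 1820 and 1825 UMIs. Astrocytes held 1 Acan UMI in each region, in 3021 and 2949 cells.

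Bcan encodes brevican, a lectican of glia. Astrocytes carried the highest level, with control pools at 1420 and 2229 CPM in motor cortex, early pools at 2377 and 1588, and late pools at 1579 and 1498. In dorsal striatum the control pools were at 1751 and 2304, the early pools at 1843 and 1597, and the late pools at 2018 and 1951. Precursor pools ranged from 653 to 1618 and from 817 to 1336, so the classes overlapped in motor cortex and were separate in dorsal striatum. Within striatal astrocytes, 2 clusters of mostly class B cells differed: 1734 cells led by genes such as Gja1, which encodes a gap junction protein, had Bcan at 2731, and 849 cells led by Gfap and Thbs4 had it at 602. The same clusters had Hapln1 at 214 and 28. These are values of clusters and were not tested.

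Ncan encodes neurocan, a lectican secreted by both neurons and glia. It had no single dominant class: medians in motor cortex were 333 in precursors, 212 in astrocytes, 106 in glutamatergic neurons and 51.2 in interneurons, against 2.83 in microglia. In dorsal striatum they were 304 in precursors, 213 in astrocytes, 116 in neuroblasts, 78.1 in spiny projection neurons and 35 in interneurons, against 3.72 in microglia. Of the 4 lecticans it was the one with the highest share of its UMIs in projection neurons. Pools were close to each other, from 69.2 to 80.7 in spiny projection neurons and from 102 to 127 in glutamatergic neurons.

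Vcan encodes versican, a lectican of precursors and migrating cells. The lowest and highest precursor pools were at 552 and 1342 CPM in motor cortex, and at 533 and 1586 CPM in dorsal striatum. Committed precursors had medians of 576 and 607. Neuroblasts of dorsal striatum ranged from 40.8 to 194. Some of their clusters had Dcx, which encodes a microtubule protein of migrating neurons, among their leading genes. Of these, 2 mostly of kit class B had 312 and 358, and another, mostly of class A, was lower. Lamp5 interneurons of motor cortex, a class that includes neurogliaform cells, had a median of 32.6, and spiny projection neurons 25.3.

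Hapln1 encodes the link protein common to cartilage and nets. Interneurons as a class had medians of 102 CPM in motor cortex and 106 in dorsal striatum, with single subclasses far above and below that. Astrocytes had 161 and 137, and precursors had 74.2 and 60.4. Projection neurons had at most 0.474 in glutamatergic and 0.523 in spiny projection pools. Hapln2 encodes the link protein of the nodes of Ranvier, and its level was highest in mature oligodendrocytes. In motor cortex, mature oligodendrocytes held 67% of the Hapln2 UMIs pooled over all cells and glutamatergic neurons 25.3%. Only 2 of the 6 pools held at least 20 mature oligodendrocytes, and per pool glutamatergic neurons, at no more than 1.05 CPM, gave a median of 71.9% (9.55% to 83.3%). Hapln4, also called Bral2, encodes a link protein that pairs with brevican. It was at medians of 56 in glutamatergic neurons and 28.2 in interneurons of motor cortex, and at 1.09 in spiny projection neurons and 26.4 in interneurons of dorsal striatum.

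Tnr is made by oligodendrocyte lineage cells and some neurons. The highest level was in committed precursors, where the control pools of motor cortex were at 2038 and 2639 CPM, the early pools at 1946 and 1938 and the late pools at 1784 and 2359. All 6 pools were above all 6 precursor pools of the same region, which ranged from 1003 to 1674. In dorsal striatum committed precursors ranged from 1275 to 2729 and precursors from 783 to 1545, and the ranges overlapped. Neurons also carried Tnr, at medians of 67.3 in glutamatergic and 40.2 in spiny projection neurons, against 3.32 and 3.42 in microglia. Astrocytes were near the microglial level in motor cortex, with at most 4.89, and above the microglial median in dorsal striatum, at 4.35 to 13.6.

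Ptprz1 encodes a receptor phosphatase whose secreted form is phosphacan, and both forms bind tenascin-R. The lowest and highest precursor pools had 2535 and 4955 CPM in motor cortex, 1872 and 4955 CPM in dorsal striatum, and 99.6% and 100% of precursors held a UMI (98% and 97.9% after thinning). Astrocytes had medians of 1500 and 1395, committed precursors 483 and 521, and striatal neuroblasts 410. Ependymal cells of dorsal striatum, which line the ventricle, had 292. Among interneurons the Vip subclass of motor cortex was highest, at a median of 133 with pools from 47 to 163. In precursors, committed precursors, astrocytes and striatal neuroblasts the 2 kit class A pools of a region were its lowest.

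**Figure D2:**
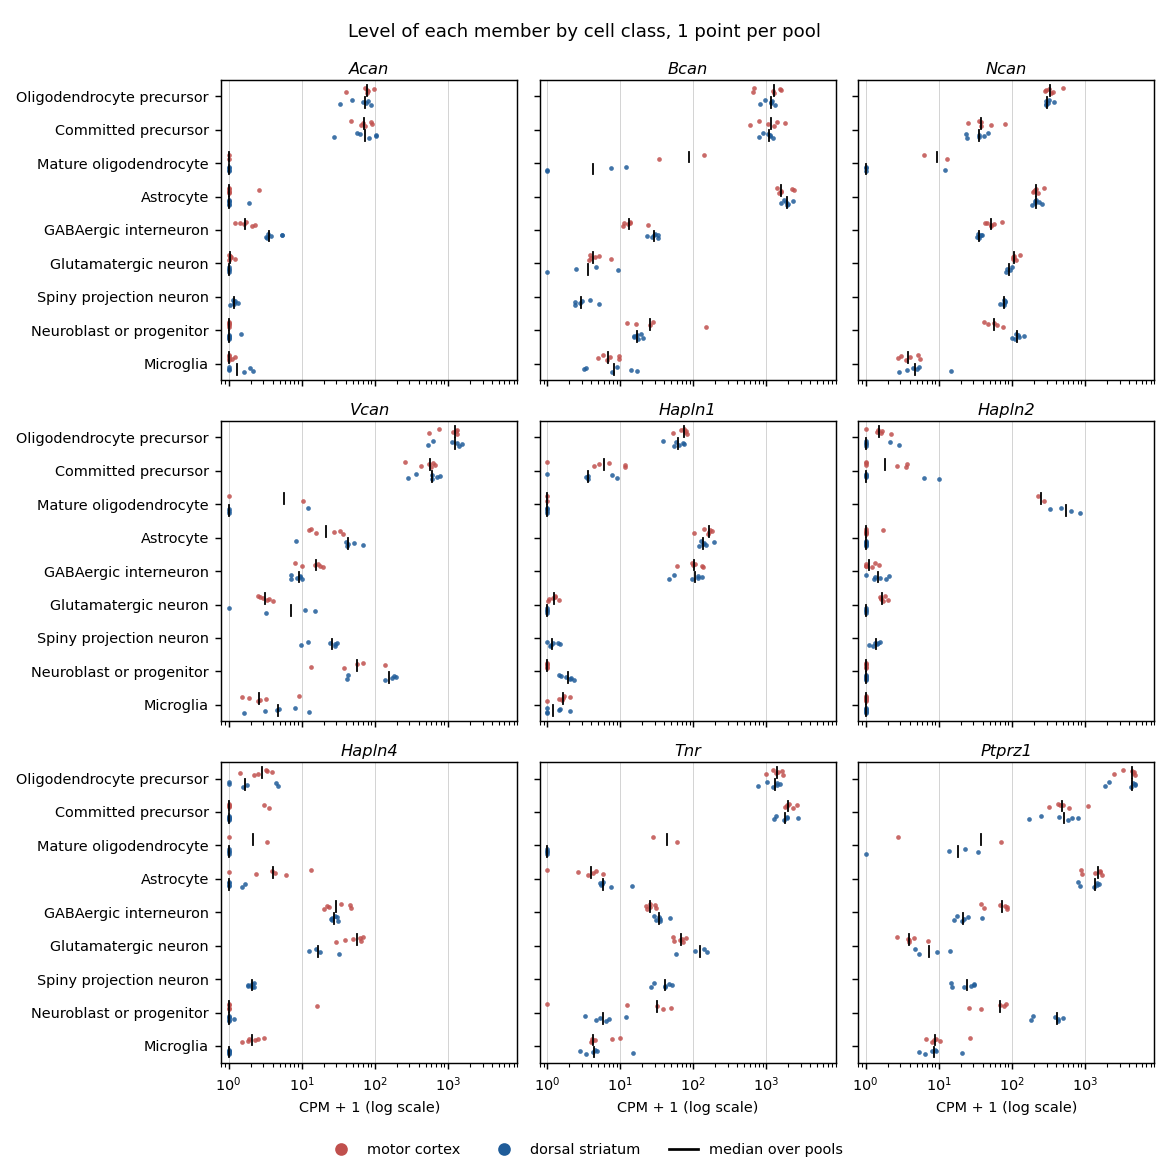
Each panel is 1 gene, each point 1 pool, and the horizontal axis gives CPM plus 1 on a log scale for 9 cell classes in motor cortex and dorsal striatum. Acan, Vcan, Tnr and Ptprz1 are high in the precursor classes of both regions, Hapln2 in mature oligodendrocytes, and Hapln4 in interneurons of both regions and in glutamatergic neurons, while spiny projection neurons are near the low end of its axis.

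Kit class moved with the precursor levels of several genes. For Ptprz1, the class A pools were at 3342 (control 1) and 2535 (late 1) in motor cortex, and the other 4 pools were at 4477 to 4955. In dorsal striatum the class A pools were at 2169 and 1872, and the others at 4359 to 4955. The same 2 pools were lowest in both regions for Vcan, Bcan and Tnr, and the groups did not overlap, while for Ncan the class A pools of motor cortex were the 2 highest, at 503 and 371 against 288 to 346. The class A pools of each region lay on a flow cell that held no class B pool. Kit class can thus not be told apart from flow cell or from the mice of those pools. Any count of molecules set side by side across these pools without the kit term carries this difference.

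Precursors and astrocytes of the same pools were then compared to find which glial class carries each gene, with edgeR's quasi-likelihood test, pool as a block and Benjamini-Hochberg adjustment over all genes tested. Classes were formed from genes that vary with these 9, so a high share of all genes differed: 64.3% in motor cortex and 60.5% in dorsal striatum. All 7 of the genes tested were called in both regions, 5 higher in precursors and 2 higher in astrocytes. Tnr was higher in precursors by 8.13 ± 0.22 (SE) and 7.63 ± 0.18 on the log2 scale, Vcan by 5.35 ± 0.18 and 4.61 ± 0.16, and Ptprz1 by 1.33 ± 0.13 and 1.28 ± 0.11. For Acan the pooled levels differed 410-fold in motor cortex (95% counting interval 73.3 to 16190) and 460-fold in dorsal striatum (82.2 to 18220), with 904 and 448 UMIs in precursors against 1 in astrocytes. The smallest difference was that of Ncan, at 0.41 ± 0.12 and 0.26 ± 0.10, with adjusted p of 0.00247 and 0.0212. The striatal Ncan call was lost without the first early pool (0.25, adjusted p = 0.072) and without the second late pool (0.25, adjusted p = 0.0795). Bcan was higher in astrocytes by 0.92 ± 0.13 (fitted log2 difference of precursors against astrocytes -0.92) and by 1.07 ± 0.11 (-1.07), and Hapln1 likewise differed by -1.37 ± 0.12 and -1.54 ± 0.12.

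The precursor-to-astrocyte difference was itself compared between the regions in a test added after the first results were seen. None of 7 genes was called in the edgeR test or with DESeq2 (1 at an unadjusted p under 0.05), where 12.3% of all genes were. The widest tested gap was Vcan, 0.71 ± 0.28 more in motor cortex with an adjusted p of 0.0876. It was called with no filter on low counts (0.76, adjusted p = 0.0299), with the 9 genes allowed in clustering (0.78, adjusted p = 0.0393), without the first striatal control pool (0.78, adjusted p = 0.0444) and without the first motor cortex late pool (0.92, adjusted p = 0.0491). With presumed doublets kept, Vcan was not called and Tnr was, at -1.12 (adjusted p = 0.0177), the opposite direction to its 0.44 ± 0.43 with doublets removed (adjusted p = 0.589).

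Mature oligodendrocytes were few, with at least 20 cells in 2 motor cortex pools and 4 striatal pools. Their Hapln2 level was 231 CPM in the first early pool (129 UMIs in 72 cells) and 278 in the first late pool (117 UMIs in 109 cells) of motor cortex. In dorsal striatum it was 467 in control 1, 339 in early 1, 645 in late 1 and 855 in late 2, from 42, 52, 57 and 68 UMIs. Precursors held 8 Hapln2 UMIs in 5701 cells and 2 in 2734 cells, and no precursor pool exceeded 1.91. The fitted difference was 9.09 ± 0.40 in motor cortex over 4 sums, and the pooled levels in dorsal striatum differed 1673-fold (counting interval 459 to 13880).

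All of the other 7 tested genes were lower in mature cells than in precursors, in comparisons where 43.3% of all genes were called in motor cortex and 46% in dorsal striatum. Mature oligodendrocytes held no Acan or Hapln1 UMI in either region, which puts Acan at least 25.2-fold and 13-fold lower and Hapln1 at least 24.8-fold and 10.8-fold lower (a floor of 3 UMIs over the group). They held no Tnr UMI in 169 striatal cells, at least 232-fold lower than precursors, and 26.9 and 59.5 CPM in the 2 motor cortex pools. Bcan differed by -3.18 ± 0.32 in motor cortex, with pools at 138 and 33.3, and Ptprz1 by -6.18 ± 0.43. Ncan was 44.3-fold lower in pooled level in motor cortex (counting interval 22.5 to 102.7), from 8 UMIs, and 85-fold lower in dorsal striatum (23.5 to 702.8), from 2. Vcan was 290.1-fold lower (113.3 to 1065), from 4 UMIs, and 671.4-fold lower (120.5 to 26520), from 1. With DESeq2 the motor cortex differences of Acan and Hapln1 were -6.60 and -6.81 with adjusted p of 0.279 and 0.259. With presumed doublets kept, the fitted striatal Hapln1 difference moved from -8.02 to -0.97 and was not called (adjusted p = 0.102). Within the lineage, levels of Ncan, Hapln1 and Ptprz1 were highest in precursors, that of Tnr in committed precursors, and that of Hapln2 in mature cells. Acan was at much the same level in precursors and committed precursors. Committed precursors were not tested against the other classes, and their striatal Tnr range overlapped that of precursors.

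Interneurons were compared with the projection neurons of their region, glutamatergic neurons in motor cortex and spiny projection neurons in dorsal striatum, where 68.7% and 76% of all genes were called. All 8 genes tested were called in motor cortex and 6 of 8 in dorsal striatum. Hapln1 was higher in interneurons by 8.74 ± 0.16 and 8.54 ± 0.14, and Bcan by 1.72 ± 0.12 and 3.70 ± 0.17. Ncan was lower in interneurons in both regions, by -1.15 ± 0.07 and -1.12 ± 0.07. Hapln4 was lower in interneurons than in glutamatergic neurons of motor cortex (-0.80 ± 0.09) and higher than in spiny projection neurons of dorsal striatum (4.69 ± 0.14). These are against different partner classes, and the difference between them was not tested. For Ptprz1 the values were 4.22 ± 0.17 in motor cortex and -0.02 ± 0.10 in dorsal striatum (95% interval -0.21 to 0.17), and for Vcan 2.58 ± 0.14 and -1.48 ± 0.14. Tnr was lower in motor cortex interneurons (-1.44 ± 0.09) and not called in dorsal striatum (-0.16 ± 0.08, adjusted p = 0.088), where it was called without the first control pool (-0.20, adjusted p = 0.0448), without the first late pool (-0.23, adjusted p = 0.011), with no filter on low counts (-0.27, adjusted p = 0.00329) and with doublets kept (-0.21, adjusted p = 0.0178). Acan was higher in interneurons by 3.05 ± 0.59 and 3.88 ± 0.36, from 22 UMIs against 9 and 59 against 21. Hapln2 was too low for the main test, with 7 UMIs in interneurons against 95 in glutamatergic neurons of motor cortex and 11 against 37 in dorsal striatum. In motor cortex it was called lower in interneurons with no filter on low counts (-1.93, adjusted p = 0.000511), under the stricter cell filter (-1.81, adjusted p = 0.0074) and with the 9 genes in clustering (-1.86, adjusted p = 0.00538).

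The Pvalb subclass, the cells around which nets are densest, held 219 cells in motor cortex (21 to 72 per pool) and 571 in dorsal striatum (80 to 134 per pool). It made up a median of 4.26% of interneurons in motor cortex and 27.5% in dorsal striatum. Its defining markers differed between the regions: Pvalb itself, which encodes the calcium buffer parvalbumin, was at a median of 2303 CPM in motor cortex and 550 in dorsal striatum. Pthlh was at 88 and 694, Syt2 at 229 and 4.09, Cox6a2 at 365 and 931, and Ank1 at 164.5 and 69.1. Kit, a marker of the interneuron class and not of this subclass, was at 15.1 and 732. A Pvalb UMI was found in 209 of the 219 cells in motor cortex and in 277 of the 571 in dorsal striatum, so the striatal cluster is called here by its rule and holds cells with few Pvalb transcripts.

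Acan, almost absent from interneurons as a whole, was concentrated in this subclass. In motor cortex the Pvalb cells held 20 Acan UMIs and the 4189 other interneurons 2, a ratio of levels of 153 (counting interval 37.2 to 1353). In dorsal striatum they held 55 against 4 in 1632 cells, a ratio of 42.7 (15.8 to 162). The pool levels were 14.3 and 6.95 in control, 7.27 and 7.56 in early and 7.91 and 22.9 in late pools of motor cortex, each from 2 to 6 UMIs. In dorsal striatum they were 10.2 and 13, 17.1 and 10.9, and 9.51 and 10.1. Every Pvalb pool was below the lowest precursor pool of its region.

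Hapln1 in the Pvalb subclass separated the regions completely. Motor cortex pools were at 57.1 and 25.5 CPM in control, 14.5 and 26.5 in early and 27.7 and 27.5 in late. Dorsal striatum pools were at 196 and 338 in control, 428 and 415 in early and 213 and 309 in late. No pool of one region reached the range of the other, and the fitted difference was -3.50 ± 0.20 on the log2 scale, motor cortex against dorsal striatum (adjusted p = 1.16e-14). It was -3.97 and -3.49 within the flow cells that held both regions. Among cells with a Pvalb UMI only, the pooled level was 28.4 in motor cortex and 373 in dorsal striatum, and striatal cells with no Pvalb UMI had 272. The lowest striatal pools, control 1 and late 1, were both of kit class A.

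Tnr, Hapln4 and Bcan went the opposite way. Tnr was at 78.6 and 114 in control, 58.2 and 52.9 in early and 77.8 and 59.5 in late pools of motor cortex, and at 15.3 to 54.2 in dorsal striatum. The fitted difference was 1.30 ± 0.24 (adjusted p = 9.81e-05). Hapln4 was at 69.1 to 195 in motor cortex and 66 to 89.4 in dorsal striatum, with overlapping pools and a fitted difference of 0.70 ± 0.17 (adjusted p = 0.00241). Bcan differed by 0.48 ± 0.17 (adjusted p = 0.0445), and Ncan by -0.60 ± 0.23 without a call (adjusted p = 0.0652). Ptprz1 was not called at 0.62 ± 0.46 (adjusted p = 0.406), and was called without the first striatal early pool (1.26, adjusted p = 0.0411). In all, 4 of 6 tested genes were called between the regions in Pvalb cells, where 19.1% of all genes were. With flow cell in place of kit in the fit only Hapln1 kept its call: Tnr gave 1.19 (adjusted p = 0.0997), Hapln4 0.22 (adjusted p = 0.866) and Bcan 0.67 (adjusted p = 0.351). That fit takes the region difference from only 4 of the 12 pools, those on flow cells that held both regions, and has less reach than the main fit. The Bcan call was also lost with DESeq2 (0.47, adjusted p = 0.131), with no kit term (0.48, adjusted p = 0.125), with no filter on low counts (0.44, adjusted p = 0.157), with presumed doublets kept (0.45, adjusted p = 0.0571) and when any of 10 of the 12 pools was left out. Ncan was called without the first striatal late pool (-0.77, adjusted p = 0.02), the first motor cortex control pool (-0.70, adjusted p = 0.0328) or the first motor cortex late pool (-0.79, adjusted p = 0.0396).

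Against the other interneurons of the same pools, Pvalb cells were higher in Bcan by 3.05 ± 0.19 in motor cortex and 1.30 ± 0.15 in dorsal striatum, and in Hapln4 by 2.5 ± 0.14 and 2.75 ± 0.15. Hapln1 went in opposite directions, -1.89 ± 0.17 in motor cortex and 3.95 ± 0.11 in dorsal striatum. Ptprz1 was lower in Pvalb cells in both, by -1.69 ± 0.21 and -1.27 ± 0.25. Tnr was higher in motor cortex (1.74 ± 0.16) and was not called in dorsal striatum (-0.35 ± 0.15, adjusted p = 0.0515), where it was called without the first early pool (-0.50, adjusted p = 0.00891) or the first late pool (-0.40, adjusted p = 0.0399). It was also called there with RLE factors, no filter on low counts, the stricter cell filter and doublets kept (-0.35 to -0.41, adjusted p of 0.0495, 0.033, 0.046 and 0.024). Ncan was lower in Pvalb cells of motor cortex (-0.73 ± 0.18, adjusted p = 0.000482) and higher in those of dorsal striatum (0.50 ± 0.13, adjusted p = 0.00142). Vcan was likewise lower in motor cortex (-1.85 ± 0.44) and called in dorsal striatum without the first early pool alone (-1.29, adjusted p = 0.00484, against -0.54, adjusted p = 0.237, with it). These comparisons called 34.3% of all genes in motor cortex and 48.2% in dorsal striatum.

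The difference between the regions in these subclass contrasts was tested directly, as an addition. It was called for 4 of 8 genes, where 27.3% of all genes were: Hapln1 (-5.87 ± 0.19), Tnr (2.07 ± 0.22), Bcan (1.71 ± 0.23) and Ncan (-1.25 ± 0.22). The adjusted p was 2.72e-40 for Hapln1, 6.38e-13 for Tnr, 1.89e-09 for Bcan and 3.97e-06 for Ncan. Hapln4 was not called (-0.28 ± 0.21, interval -0.69 to 0.13). Ptprz1 was not called at -0.44 ± 0.39 (adjusted p = 0.449), and was called without the first motor cortex late pool (-1.11, adjusted p = 0.0451). The partner population also changes with the region: Lamp5 cells were a median of 32.3% of interneurons in motor cortex, and Sst cells 40.1% in dorsal striatum.

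The subclasses that make up those partners carried different genes. In motor cortex, Hapln1 was highest in Lamp5 cells, with control pools at 219 and 279, early pools at 227 and 359, and late pools at 188 and 336. All 6 were above every Pvalb pool of motor cortex, and Sst cells were at most 2.78. Sst cells, which make somatostatin, carried Tnr at 52.7 in motor cortex and 41.6 in dorsal striatum. Cholinergic interneurons of dorsal striatum carried Tnr at 46.8, Ptprz1 at 36.3, Ncan at 32.4 and Bcan at 16.7, in 225 cells.

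**Figure D3:**
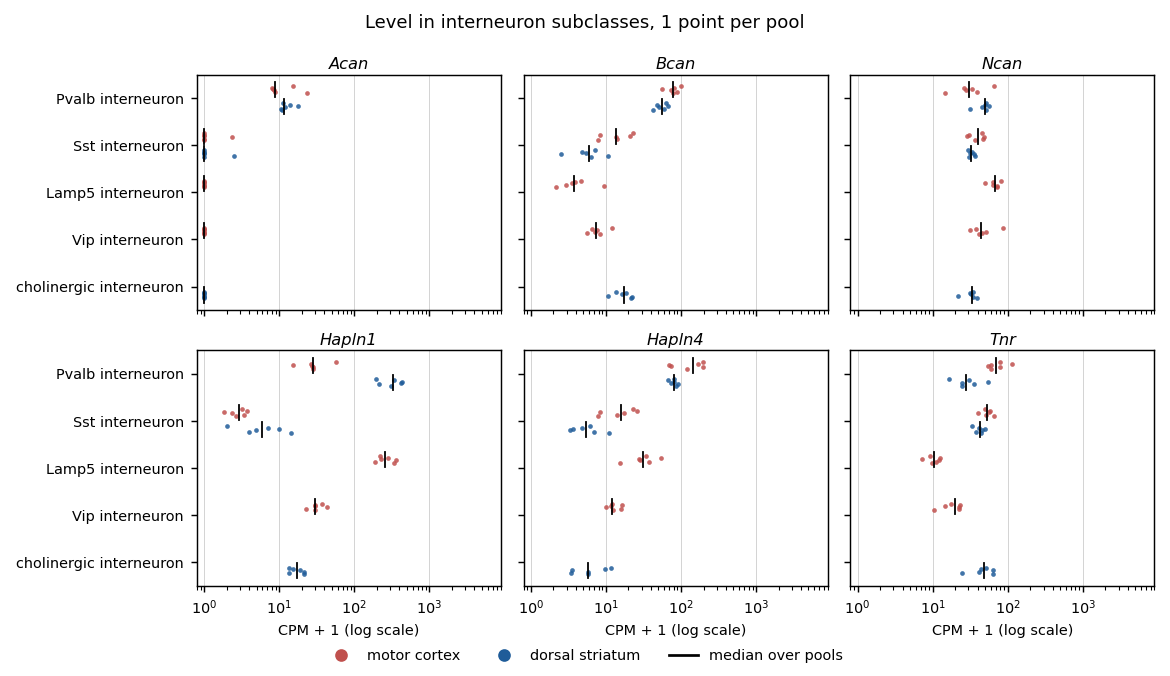
Points are pools, short bars are medians over pools, and the horizontal axes give CPM plus 1 on a log scale for Acan, Bcan, Ncan, Hapln1, Hapln4 and Tnr in the Pvalb, Sst, Lamp5 and Vip subclasses and the cholinergic interneurons. Hapln1 is high in striatal Pvalb cells (196 to 428) and in motor cortex Lamp5 cells (188 to 359), and low in motor cortex Pvalb cells (14.5 to 57.1).

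RNA of other cells was measured in the Pvalb subclass. The summed level of the precursor markers there was a median of 84.4 in motor cortex and 73 in dorsal striatum, against 11020 and 11370 in precursors themselves. The summed astrocyte markers were at 128 and 110, against 19250 and 17260 in astrocytes. The summed glutamatergic markers were at 82.4 to 212 in motor cortex and 0 to 7.13 in dorsal striatum, where 4 of the 7 were at 0. The part of glutamatergic RNA in the Hapln4 and Tnr differences was not tested. Among cells with a Pvalb UMI, median levels in motor cortex and dorsal striatum were 17.1 and 10.4 for Ptprz1, and 4.28 and 3.64 for Vcan. These are low beside the levels in precursors, and the part of precursor RNA in them was not tested.

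Among glutamatergic neurons of motor cortex, layer 2/3 cells had Hapln4 at a median of 72.8, layer 4/5 cells at 49.7, layer 6 corticothalamic cells at 43.5, layer 6 intratelencephalic cells at 54.7 and layer 6b cells at 51.3. Tnr was highest in layer 6 intratelencephalic cells, at 97.5 with pools from 88.4 to 120, above all 6 corticothalamic pools (36.1 to 58). Ncan ranged from 82.7 in layer 4/5 to 126 in corticothalamic cells. In dorsal striatum, D1 spiny neurons had Ncan at 85.1 and Ptprz1 at 30.1, D2 spiny neurons had 68.2 and 13.2, and eccentric spiny neurons 106 and 38.3. Their Vcan levels were 23.1, 30.2 and 8.76. The D1 and D2 pools overlapped for Ncan, Ptprz1 and Vcan, and these subclasses were not tested.

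Levels in the same class were next compared between motor cortex and dorsal striatum over the 12 pools, with stage and kit class in the edgeR model. Of 32 tested pairs of a gene and a class, 7 were called, 3 higher and 4 lower in motor cortex. Precursors gave 0 calls among 7 genes (none at an unadjusted p under 0.05), with fitted differences from -0.03 to 0.24 and intervals within -0.27 to 0.49. In that class 0.711% of all genes were called. Committed precursors gave 0 calls among 6 genes (none at an unadjusted p under 0.05), where 0.511% of all genes were called. The other tested classes called 1.2% of all genes and none of the few tests of the 9. Those tests were of Bcan, Vcan, Tnr and Ptprz1 in microglia, and of Bcan and Ptprz1 in endothelial cells. Vcan in microglia gave -1.17 ± 0.48 (adjusted p = 0.421 in edgeR). In fibroblasts, perivascular macrophages and smooth muscle all 9 genes were too low to test. Genes too low for the main test were called in microglia with no filter on low counts (Hapln4, 4.56, adjusted p = 0.0452) and with doublets kept (Ncan, -0.96, adjusted p = 0.00267), and in astrocytes with doublets kept (Tnr, 1.20, adjusted p = 0.0138).

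Interneurons accounted for 6 of the 7 calls, in a class where 36.8% of all genes were called and where the mix of subclasses differs between the regions. Ptprz1 was at 37.4 to 85.2 CPM in motor cortex and 15 to 38.5 in dorsal striatum, with a fitted difference of 1.45 ± 0.13 (adjusted p = 8.86e-08). The 2 ranges overlapped only between a class A pool of motor cortex and the first early pool of dorsal striatum. Vcan (0.71 ± 0.14) and Ncan (0.46 ± 0.12) were also higher in motor cortex. Acan (-2.28 ± 0.41), Bcan (-1.20 ± 0.16) and Tnr (-0.53 ± 0.13) were lower. Acan rested on 22 UMIs in 4408 cells against 59 in 2203 cells, and it gave -1.66 with an adjusted p of 0.0911 with flow cell in place of kit. That fit takes the region difference only from flow cells that held both regions. Hapln1 and Hapln4 did not differ beyond error in the class as a whole, at 0.12 ± 0.13 and 0.09 ± 0.17.

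Astrocytes gave 1 call, in a class where 21.7% of all genes were called. Vcan was at 12.6 and 11.6 in control, 32.8 and 26.4 in early and 14.7 and 36.4 in late pools of motor cortex. In dorsal striatum it was at 7.32 and 39.9, 52 and 42.9, and 68.2 and 40.6, and the striatal control 1 value came from 3 UMIs. The fitted difference was -0.89 ± 0.26 (adjusted p = 0.0166). It was lost with flow cell in place of kit (-0.32, adjusted p = 0.765), without the second striatal control pool (-0.68, adjusted p = 0.0789) and without the second motor cortex control pool (-0.63, adjusted p = 0.17). Within the flow cells that held both regions it was -0.70 and -0.16. The summed neuroblast markers in astrocytes moved with it, at 45.8 to 106 in motor cortex and 251 to 975 in dorsal striatum with none of the 9 markers at 0 there, and their part in it was not tested.

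Training stage was the study's main comparison. Of 249 tests of a gene in a class, in 23 combinations of region and class, edgeR called none, DESeq2 called none, and 6 had an unadjusted p under 0.05. The lowest adjusted p was 0.522. Over all genes, early against control called 0.0218% of tests in motor cortex and 0.0405% in dorsal striatum. Late against control called 0.114% and 0.0552%, and late against early 0.0146% and 0.0276%. With 2 pools per group the design has limited reach: in simulated precursor counts, 43% of genes changed 2-fold and 92% of those changed 4-fold were recovered between early and control. Those counts had 1 dispersion for all genes and no kit difference, in a class of at least 275 cells per pool. Smaller classes were not simulated, so these rates do not hold for them. P-values here measure the spread between pools that the kit term leaves.

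In precursors Acan was at 72.9 and 97.3 in control, 76.7 and 79 in early, and 39.3 and 76.8 in late pools of motor cortex. The first late pool was the lowest of the 6, the second control pool the highest, and the other 4 lay between 72.9 and 79. The fitted late difference was -0.46 ± 0.22 with a normal interval of -0.89 to -0.03 and an adjusted p of 0.9997. Its unadjusted p in edgeR was not under 0.05. In the pair that shared a flow cell and kit class, late 1 against control 1, the log2 ratio was -0.89. In dorsal striatum the pools were at 48.3 and 79.4, 68.7 and 76, and 32.5 and 88.5, and the fitted late difference was -0.03 ± 0.22. There too late 1 (32.5) and control 1 (48.3) shared a flow cell and kit class, and late 1 was the lower.

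Across the 7 genes tested in precursors, fitted stage differences lay between -0.46 and 0.23 for motor cortex, and between -0.29 and 0.50 for dorsal striatum. The highest was Hapln1 in early striatal pools (0.50 ± 0.26, interval -0.01 to 1.00), with control pools at 37.9 and 57.8 and early pools at 70.7 and 72.9. For Ptprz1 the normal intervals of all 6 stage differences lay within -0.52 to 0.46. Such intervals are too narrow where few residual degrees of freedom remain, so they put no bound on a stage change.

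**Figure D4:**
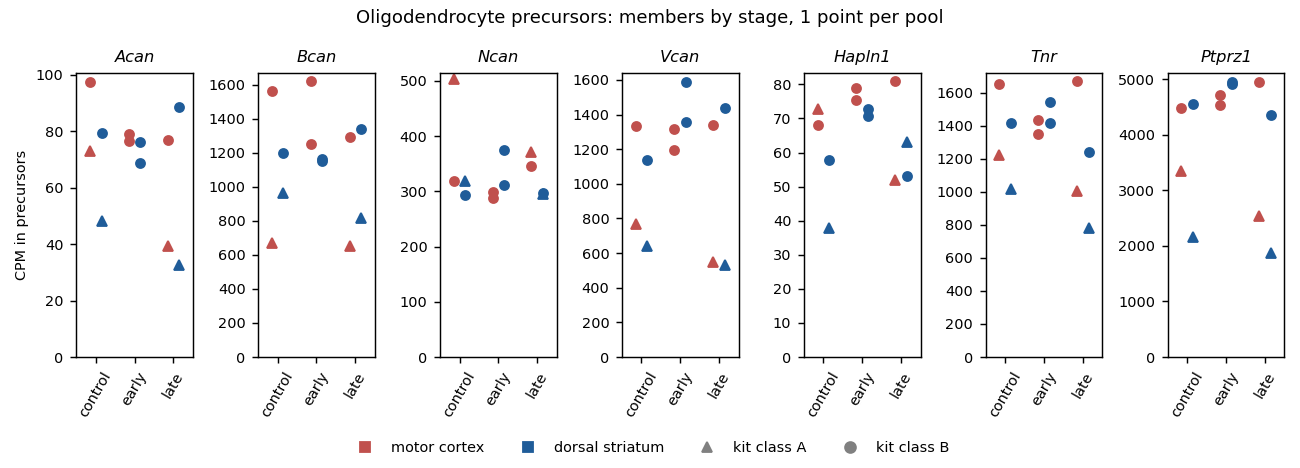
Points are precursor levels per pool in CPM for 7 genes by stage, with triangles for kit class A and circles for class B, in motor cortex and dorsal striatum. The triangles lie below the circles for Ptprz1, Vcan, Tnr and Bcan in both regions at both stages where they occur.

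Hapln4 in motor cortex neurons had the lowest p-values by stage among the net genes of the Pvalb subclass. The Pvalb pools were at 193 and 167 CPM in control, 69.1 and 71.8 in early, and 195 and 119 in late, from 19 to 148 UMIs. Both early pools were below all 4 other pools. The early difference was -1.09 ± 0.31 (unadjusted p = 0.00245, adjusted p = 0.474 in edgeR). Tnr in the same cells was also lower in the early pools, with a fitted difference of -0.84 ± 0.36 and an adjusted p of 0.679. Of 27 stage tests in the Pvalb subclass none was called in edgeR or DESeq2, 5 had an unadjusted p under 0.05, and over all genes 0.0226% of tests were called in motor cortex and 0.159% in dorsal striatum.

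Hapln4 in all motor cortex interneurons was at 33.8 and 44.4 in control, 21 and 22.7 in early, and 46.7 and 19.4 in late pools. In glutamatergic neurons it was at 67.6 and 62.4, 49.5 and 38.1, and 63.6 and 29. In both classes the early pools were below both control pools, and the late pools were far apart, with the class A pool high and the class B pool low. The early difference in interneurons was -0.63 ± 0.33 (adjusted p = 0.936). It was -0.96 without control 1, without late 1 or without late 2. With the kit term these fits all give 1 contrast, the early pools against control 2 alone. Without control 1 or late 1 the late difference was -1.17, that of late 2 against control 2, and it was -0.31 ± 0.32 with all pools. Without late 2, late against early was 1.49. In each of these fits the only spread between pools left was that of the early pair. The late difference thus moved with which control and late pools were kept.

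In dorsal striatum the Pvalb subclass had Hapln1 at 196 and 338 in control, 428 and 415 in early and 213 and 309 in late pools, with both early pools above the rest. The early difference was 0.37 ± 0.18 (adjusted p = 0.632) and late against early was -0.41 ± 0.19 (adjusted p = 0.591). Ptprz1 was at 38.5 in the first early pool, from 27 UMIs, and at 2.51 to 13.3 in the other 5. It was too low for the main test. It was called between early and control with no filter on low counts (3.1, adjusted p = 0.000814), and also when control 1 (2.96), early 2 (3.86), late 1 (2.97) or late 2 (2.95) was left out, and rests on that 1 pool. The fits without control 1, late 1 or late 2 all set the early pools against control 2 alone.

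**Figure D5:**
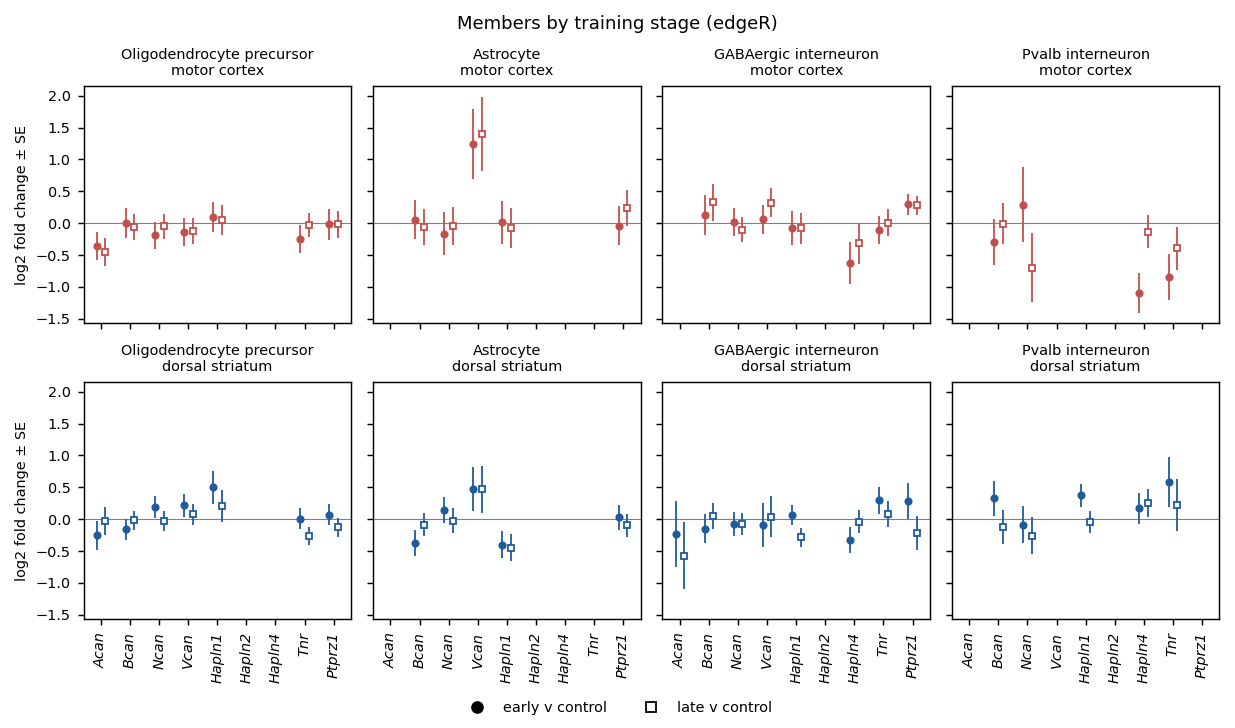
Points give the fitted log2 difference of early (filled) and late (open) against control, and bars its standard error, for each gene in precursors, astrocytes, interneurons and the Pvalb subclass of both regions. No point passed the test, and the lowest in Pvalb cells is Hapln4 in motor cortex, early against control, at -1.09.

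The remaining 6 stage tests with an unadjusted p under 0.05 were Vcan in motor cortex astrocytes (early 1.24 ± 0.55 and late 1.40 ± 0.58), Vcan in glutamatergic neurons (late 0.75 ± 0.30), Tnr in microglia (late -1.30 ± 0.48), and Tnr (early -0.89 ± 0.40) and Vcan (late against early -0.33 ± 0.15) in striatal neuroblasts. Vcan in motor cortex astrocytes rested on 3 and 16 UMIs in the control pools. Whether a stage difference differed between the regions was tested in 68 combinations of gene, class and stage and in 12 of the Pvalb subclass. EdgeR and DESeq2 called none of either. By edgeR 5 of the former and 4 of the latter had an unadjusted p under 0.05, where 0.0151% of the tests over all genes were called. The lowest adjusted p was 0.267, for Hapln4 in Pvalb cells at the early stage (-1.39 ± 0.37). In precursor counts simulated in the same way, the early term recovered 12% of genes changed 2-fold and 77% of those changed 4-fold.

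The hemisphere opposite the trained limb was compared with the same side in the 4 trained pools of each region, to ask whether training left a difference between sides. None of 73 tests was called in edgeR or DESeq2 (9 at an unadjusted p under 0.05), nor any of 5 in the striatal Pvalb subclass (none at an unadjusted p under 0.05). Over all genes, 0.037% of tests were called in motor cortex and 0.0158% in dorsal striatum. The lowest adjusted p was 0.74, for Tnr in glutamatergic neurons (-0.12 ± 0.05). The lowest unadjusted p-values were those of Bcan in striatal microglia (-1.76 ± 0.58, unadjusted p = 0.00639 in edgeR) and Ncan in ependymal cells (0.71 ± 0.26, unadjusted p = 0.00706).

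Genes that build, bind or cut the same matrix were taken from 5 lists of 75 symbols, of which 74 were measured. Between precursors and astrocytes, 28 of 55 tested were higher and 12 lower in motor cortex, and 22 and 20 of 55 in dorsal striatum (median log2 difference 0.66 and 0.07, against 0.03 and -0.05 over all genes). That is 72.7% and 76.4% of those tested, beside 64.3% and 60.5% of all genes. Cspg4, which encodes the proteoglycan NG2 and is also one of the precursor markers, was higher by 6.79 and 6.91. Cntn1, which encodes contactin-1, a neuronal and glial partner of Ptprz1, was higher by 4.00 and 6.38. Sdc3, a syndecan, was higher by 3.87 in both regions, and Sdc4, another syndecan, was lower by -5.88 and -5.78.

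From precursors to mature oligodendrocytes, 31 of 52 listed genes fell and 5 rose in motor cortex, and 27 of 36 fell and 4 rose in dorsal striatum, with medians of -2.07 and -3.60 against -0.12 and -0.24 over all genes. The shares called were 69.2% and 86.1%, beside 43.3% and 46% of all genes. Cspg5, which encodes neuroglycan C, fell by 6.08 and 6.87 on the log2 scale. Adamts4, which encodes a protease that cuts lecticans, rose by 7.59 in motor cortex, and Spock3, which encodes a testican, rose by 6.54 and 5.34.

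In the Pvalb subclass against other interneurons, 8 of 51 listed genes were higher and 14 lower in motor cortex, and 12 and 20 of 48 in dorsal striatum. That is 43.1% and 66.7% of those tested, against 34.3% and 48.2% of all genes, with median differences of -0.06 and -0.31 against -0.04 and -0.01 over all genes. Cemip, which encodes a hyaluronan-degrading protein, was higher by 3.00 and 3.58. Adamts5, which encodes another lectican-cutting protease, was higher in dorsal striatum by 3.47, and Timp2, which encodes an inhibitor of matrix proteases, was lower by -1.26 and -3.11. Ptn, which encodes pleiotrophin, a ligand of Ptprz1, was lower by -1.43 and -1.14.

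Between the regions, 5 of 33 listed genes were higher and 10 lower in motor cortex Pvalb cells, among them Adamts5 (-4.97), Ust (-5.11), which encodes a chondroitin sulfotransferase, and Ptn (-2.05). In interneurons as a whole 11 were higher and 20 lower of 51, and in astrocytes 7 and 12 of 42, including Cntn1 (2.12), Csgalnact1 (1.33), which starts chondroitin chains, and Tnc (-2.31), which encodes tenascin-C. Precursors gave 2 higher and 1 lower of 54: Adamts9 (1.36), Nptx2 (0.70) and Spock3 (-1.68). The shares called were 45.5% of the listed genes in Pvalb cells, 60.8% in interneurons, 45.2% in astrocytes and 5.56% in precursors, beside 19.1%, 36.8%, 21.7% and 0.711% of all genes. By stage, 4 of 2463 tests of listed genes were called, where 0.0146% to 0.114% of tests over all genes were, and all 4 were of Ctss, a lysosomal protease gene of microglia: -3.38 and -4.19 in motor cortex astrocytes (late against control and against early), -2.95 in endothelial cells and -2.34 in pericytes. The part of microglial RNA in those classes was not tested. No listed gene was called by hemisphere in 646 tests (0.037% and 0.0158% over all genes in motor cortex and dorsal striatum) or in the stage difference between regions in 676 (0.0151%).

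Across 23 combinations of region and class, the genes whose mean level was most like each of the 9 were listed among 16073 genes, by Pearson correlation of log2 values. The points share libraries and the classes differ in size, so these are descriptions. The nearest to Acan were A930009A15Rik (0.991), Sema3d and Gm42909, to Bcan Cmtm5 (0.969), Car8 and Col11a2, and to Ncan Dclk1 (0.971), 9330159F19Rik and Mir9-3hg. The nearest to Vcan were Sox3 (0.936), Cacng4 and AC034116.4, to Tnr Gm37731 (0.976), Gm38039 and Lhfpl3, and to Ptprz1 Gfra1 (0.945), Sox21 and Fabp7. Cacng4 and Lhfpl3 were among the precursor markers used for naming. The nearest to Hapln1 were Zim1 (0.961), Cxcl14 and Lrrc75b, and to Hapln4 Syt13 (0.981), Sidt1 and Kcnk9. For Hapln2, whose main class had too few cells for these means, they were Map6d1 (0.935), Opcml and Zfp365. Between the 9 genes, Acan and Tnr (0.919) and Bcan and Ptprz1 (0.915) were most alike, and Hapln4 was least like the others, at 0.379 or below.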

How the data were processed

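Single-cell 3′ libraries (10x Genomics kits of version 2 or 3, not tied to libraries in the labels) were aligned with Cell Ranger 3.1.0 to GRCm38/mm10, per the submitters' processing notes, while the matrix headers give software version 3.0.2. The deposited values are UMI counts per gene and cell barcode, not normalized by the authors, in filtered matrices. Of 24 libraries 23 were analysed, and the other was not used here. Read-level steps are not given in the sources used here.

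Kept cells had 500 or more genes, 1000 or more UMIs and no more than 20% of counts from mitochondrial genes, and presumed doublets were removed at 0.8% per 1000 cells. Each region was clustered without the 9 genes (2000 variable genes, 40 components, 20 neighbours, Leiden resolution 1.5, leidenalg 0.10.2, scikit-learn 1.9.0). Clusters were named from marker lists, and the naming thresholds were set after clusters had been seen. The genes and all lists were chosen with earlier results of these data known. By rule all 9 genes could be named in every comparison, with those that were not tested or not called often given as counts, and of the pathway lists the called genes with the lowest adjusted p, at most 5 per comparison and class.

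UMI counts were summed per pool and class (at least 20 cells) and tested with edgeR 4.0.16 (quasi-likelihood, TMM, filterByExpr) in R 4.3.3, with kit class as a covariate for stage and region, and pool as a block for class pairs and hemispheres. P-values were adjusted over all genes of a class and comparison and called under 0.05. The pool of 2 mice is the replicate. Stage p-values measure only the spread between pools that the kit term leaves. That is the gap between the 2 early pools, and how the gap between kit classes differs between control and late. Region p-values measure the spread between all pools, given stage and kit class. Class-pair and hemisphere p-values measure the spread of differences within pools. The SE is the absolute log2 fold change over the square root of F, and intervals are 95% normal intervals from that SE. They take no account of residual degrees of freedom and are too narrow where these are few, as in the stage fits. The Pvalb subclass tests of stage, region and hemisphere, the class-pair-by-region tests and flow cell as a term were added after first results. With flow cell as a term, the region difference comes only from the flow cells that held both regions, and few residual degrees of freedom remain. Within a region, stage with flow cell as a term leaves no residual degrees of freedom. Stage values within a flow cell are given only for Acan in precursors. Alternatives were DESeq2 1.42.0, RLE factors, no filter on low counts, a stricter cell filter (1000 genes, 2000 UMIs, 10%), doublets kept, at least 50 cells, no kit term, the 9 genes allowed in clustering, and each pool left out. Tests were checked on simulated counts. Counting intervals and floors (3 UMIs) cover counting error only.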

Additional observations from a re-analysis of the deposited data

Results flagged for a closer look

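Pool levels of a gene in a region and class or interneuron subclass were checked, on the log2 scale, where their median was at least 10 CPM. A single pool stood apart from the rest by Dixon's 95% criterion in 8 of 129 sets (6.2%), where chance gives about 1 in 20 for independent sets. The sets are not independent, since interneuron subclasses lie within the interneuron class. The values are CPM. In precursors, Acan in motor cortex late 1 was the lowest at 39.3 (others 72.9 to 97.3), and Ncan in dorsal striatum early 1 was the highest at 375 (others 293 to 319). In astrocytes, Vcan in dorsal striatum control 1 was the lowest at 7.32, from 3 UMIs (others 39.9 to 68.2). In interneurons, Bcan in motor cortex late 1 was the highest at 23 (others 10.1 to 12.6), and Tnr in dorsal striatum early 1 was the highest at 47.9 (others 27.9 to 34). The motor cortex late 1 pool was also the one with the most Pvalb cells, 72 against 21 to 37, and the part of that in its Bcan level was not tested. Ncan was lowest in dorsal striatum late 1 in spiny projection neurons, at 69.2 (others 76.5 to 80.7), and in Pvalb cells, at 30.4 from 16 UMIs (others 44.5 to 55.6). In cholinergic interneurons it was lowest in early 2, at 20.6 from 17 UMIs (others 30.2 to 37.6).

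The contrast of Pvalb cells with other interneurons differed between motor cortex and dorsal striatum for 4 genes in edgeR's test of that difference over the 12 pools: Hapln1 (-5.87, adjusted p = 2.72e-40), Tnr (2.07, adjusted p = 6.38e-13), Bcan (1.71, adjusted p = 1.89e-09) and Ncan (-1.25, adjusted p = 3.97e-06). The regions differ in driver line and in the subclasses that make up the other interneurons.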

How the results depend on the processing

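The 73 single values that were called were computed again 1017 times, under the alternatives and with each pool left out. In 991 they kept direction and call, and in none did they reverse. In 26 (9 of the values) they kept direction and lost the call, 12 under a setting and 14 with 1 pool left out. Of the fits that ran, 1 value was missing, Acan between regions in interneurons under the stricter cell filter. Fits left with too few pools were not run and are not in these counts. Among them, where at least 50 cells were required, were the striatal mature oligodendrocyte pair and the Pvalb tests that use motor cortex. The motor cortex mature oligodendrocyte pair could not be refitted with either of its pools left out. Without the filter on low counts, stage calls rose from 0 to 2 (Hapln4 in motor cortex glutamatergic neurons late, -0.60, adjusted p = 0.0178, and Bcan in smooth muscle early, -3.74, adjusted p = 0.0145). Under that setting Pvalb stage calls also rose from 0 to 2 (Ptprz1 in dorsal striatum), Pvalb hemisphere calls from 0 to 1 and region-by-stage calls from 0 to 1. The precursor and astrocyte contrast by region went from 0 to 1 without that filter, with doublets kept and with the 9 genes in clustering. With flow cell in place of kit, region calls in Pvalb cells fell from 4 to 1, in a fit with less reach. Leaving out 1 pool gave 0 to 5 stage calls, 0 to 2 in Pvalb cells, 0 to 1 for the precursor and astrocyte contrast by region and 4 to 5 for the Pvalb contrast by region, 6 to 7 region calls, 3 to 5 in Pvalb cells, and 57 to 60 of the class-pair calls. A group left with 1 pool was assumed to vary like the other groups, and in stage fits without a control or late pool only the early pair gave spread. With motor cortex control 1 left out, smooth muscle of that region gave stage differences for Bcan of -4.41 (early) and -7.83 (late), and for Ptprz1 of -3.62 (early). Under the other settings region calls ran from 5 to 9 and class-pair calls from 56 to 61, except 42 where at least 50 cells were required, which leaves fewer classes. Class medians of at least 10 CPM numbered 87 of 261, and 124 with doublets kept. After thinning to 1000 UMIs, 18 of 87 shares of cells with a UMI stayed within 1 SD. By replicate number, no paired analysis was possible because the labels give no replicate numbers that match pools of different stages or regions. Pools do share flow cells, and pairs by flow cell were possible. Flow cell was used as a term for region only, and stage was not tested with it over the 12 pools. Classes and hemispheres of 1 pool were compared with pool as a block. Depth limits Acan and Hapln2, and Hapln4 in dorsal striatum: Acan had 20 UMIs in motor cortex Pvalb cells.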

Other observations

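Neuroblasts and progenitors of dorsal striatum carried a set of these genes that differed among their clusters. Of the clusters with Dcx among their leading genes, those mostly of kit class B had Vcan at 312 and 358 CPM, and the one mostly of class A had it at 77.2. A cluster of 1374 cells led by Top2a, a gene of dividing cells, was mostly of class B and had Ptprz1 at 572. In the class as a whole Ncan was at a median of 116 and Bcan at 16.3. A dividing cluster of motor cortex precursors (269 cells, led by Top2a) had Ptprz1 at 3303, Tnr at 883, Bcan at 752 and Vcan at 725. A striatal interneuron cluster of 507 cells led by Th and Trh had Bcan at 60.3, Hapln1 at 53.1 and Hapln4 at 30.8. Within motor cortex Lamp5 cells, a cluster of 66 cells had Hapln1 at 970, and Hapln1 was among its leading genes. Among glutamatergic neurons, a layer 5 pyramidal tract cluster of 66 cells had Hapln4 at 191, and Pvalb was among its leading genes. These are levels of clusters pooled over pools, with no test.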
